A study of Mus musculus with 94 samples.

Results

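The 10 genes described here encode metallothioneins (*Mt1*, *Mt2*), antioxidant enzymes (*Gpx1*, *Gpx3*, *Gpx4*, *Sod1*, *Sod3*, *Cat*, *Gstm1*) and an inhibitor of thioredoxin (*Txnip*). They were taken by name from the table of primary PV-ADSCs (perivascular adipose tissue-derived stem cells), and all 10 had a row among its 16069 genes. Their levels were compared between 58 stromal cells, defined by a value of at least 1000 for *Dcn* (decorin, a matrix proteoglycan of fibroblasts), and the other 27 cells. The cells came from untreated c57/bl mice aged 8 weeks, from fat around the thoracic aorta, and were sorted as CD144-/CD45-/CD29+/Sca1+ single cells without culture. All cells belong to this single condition, with no treated or control group. The labels tie no cell to an animal, so the cells were handled as 1 sample, and neither a test nor a standard error was computed between the classes. SDs in the text are over cells.

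Metallothioneins are small cysteine-rich proteins that bind zinc and copper. Their genes are switched on by metals through the transcription factor MTF-1, and also by glucocorticoids and oxidants. Superoxide dismutases turn superoxide into hydrogen peroxide, which catalase and the glutathione peroxidases then break down, the latter at the expense of glutathione. Glutathione transferases use the same thiol to conjugate electrophiles, and *Txnip* encodes a protein that binds and inhibits thioredoxin and responds strongly to glucose.

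Most stromal cells held both metallothionein transcripts, and *Gpx3* and *Sod3*, which encode the secreted glutathione peroxidase and the extracellular superoxide dismutase, were also abundant. In the other cells *Mt2*, *Gpx3* and *Sod3* were close to absent, and *Mt1* was low except in 4 cells. The intracellular enzymes *Gpx1*, *Gpx4*, *Sod1* and *Gstm1* were found in a smaller share of the other cells. This did not hold for *Gpx1* and *Gpx4* in the 9 stromal cells with no more genes above 0 than the richest other cell. There each reached 100 reads in 3 cells, compared with 11 of the 27 other cells. In cells with at least 100 reads the levels of these intracellular enzymes were similar or higher in other cells. This was not particular to them. Among 976 genes with at least 5 such cells in each class, 87.7% had the higher median level in other cells. *Cat* was present in few cells of either class, and *Txnip* was present in both classes at similar mean log2 levels.

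The series describes 94 cells, of which 85 are in the table. Reads could be recovered from the deposited values, and the recovered total per cell ranged from 1359289 to 4776510, with a median of 2847986. Levels are given below as recovered reads, as CPM (recovered reads of a gene per 1000000 recovered reads of the cell), or as log2(deposited value + 1). The other cells held fewer genes with a value above 0, with a median of 1416 compared with 2813 in stromal cells, at median recovered totals of 2714449 and 2963854. Reads of mitochondrially encoded genes made up a median of 9.19% of recovered reads in other cells and 3.21% in stromal cells, with highest values of 82.6% and 33.5%. Of the stromal cells, 57 had at least 4 of 12 stromal markers at 100 recovered reads or more, whereas none of the other cells did. Among the other cells, 24 had at least 3 of 15 endothelial markers at that level, among them *Cdh5* in 20 cells, although CDH5 (CD144) had been gated out in the sort. Only 1 stromal cell held 3 or more endothelial markers. Rows existed for 1 of 8 adipocyte, 3 of 11 immune, 5 of 7 red cell, all 6 mesothelial and 1 of 4 glial markers. These were at 0 in all other cells. The mesothelial marker *Wt1* reached 100 reads in 18 stromal cells, whereas each of the remaining mesothelial markers did so in 1 to 3. Of the 5 mural markers with a row, *Rgs5* reached 100 reads in 3 other cells and *Mcam* in 2, and neither was found in a stromal cell. The rest of the mural markers were each above 0 in 1 or 2 stromal cells and at 0 in all other cells. The remaining 3 other cells had 285 to 405 genes above 0, mitochondrial shares of 73% to 82.6%, and at most 1 of the 10 genes at 100 reads.

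The threshold on *Dcn* was clear in values but not in reads for 1 cell. The stromal cell with the lowest value had 6521 for *Dcn* and the next had 11185, compared with 269 and 239 in the highest other cells. The value of 6521, however, was the product of 69 recovered reads and a scaling factor of 94.5, whereas the next lowest stromal cell had 18172 reads and the highest other cell had 248. This cell also had the largest sum of deposited values in the table, none of the stromal markers at 100 reads, 850 genes above 0, and none of the 10 genes at 100 reads. With this cell left out, or placed among the other cells by a rule of at least 1000 recovered *Dcn* reads that was chosen after seeing the data and gave 57 stromal cells, the number of the 10 genes that were higher in stromal cells by at least 1 was again 8.

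Of the 10 genes, 8 had a mean log2(deposited value + 1) that was higher in stromal cells by at least 1, and none was higher in other cells by that much. Over the 11478 genes with a value above 0 in at least 3 cells, the corresponding shares were 35.6% higher in stromal and 2.84% higher in other cells. The median difference of the 10 genes was 4.54, compared with 0.64 over all genes tested, and the genes were chosen with earlier results of these data known. On CPM of recovered reads the count was again 8 and 0, with 29% and 2.51% of all genes, and the median differences were 4.04 and 0.50. The plots of reads in every cell and of shares of cells show how the 10 genes fall into groups.

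**Figure D1:**
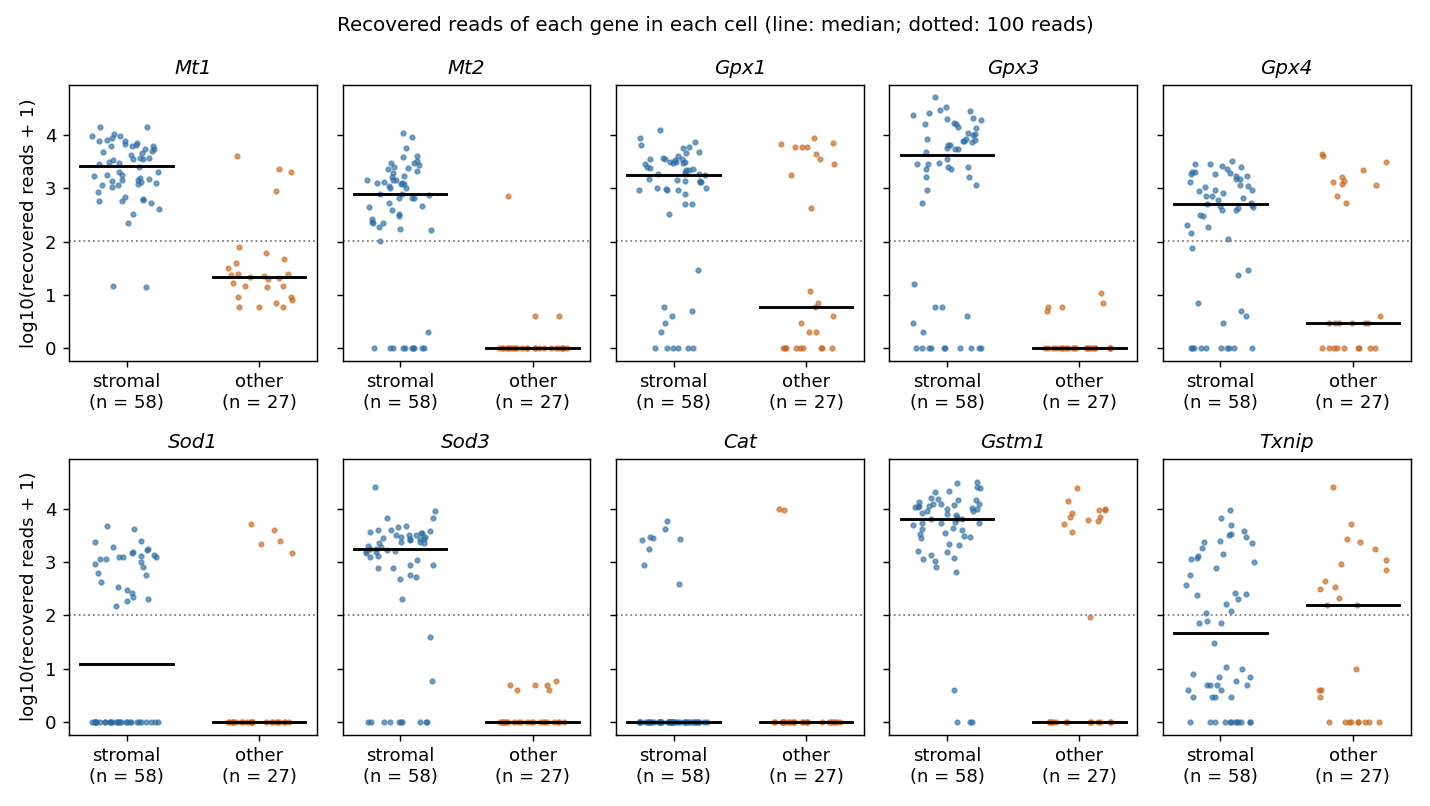
Recovered reads of each gene in each cell, as log10(reads + 1), for 58 stromal and 27 other cells; each point is a cell, lines are medians and the dotted line marks 100 reads. Most genes were either near 0 or well above 100 reads in a cell, and no other cell reached 100 reads of *Gpx3* or *Sod3*.

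**Figure D2:**
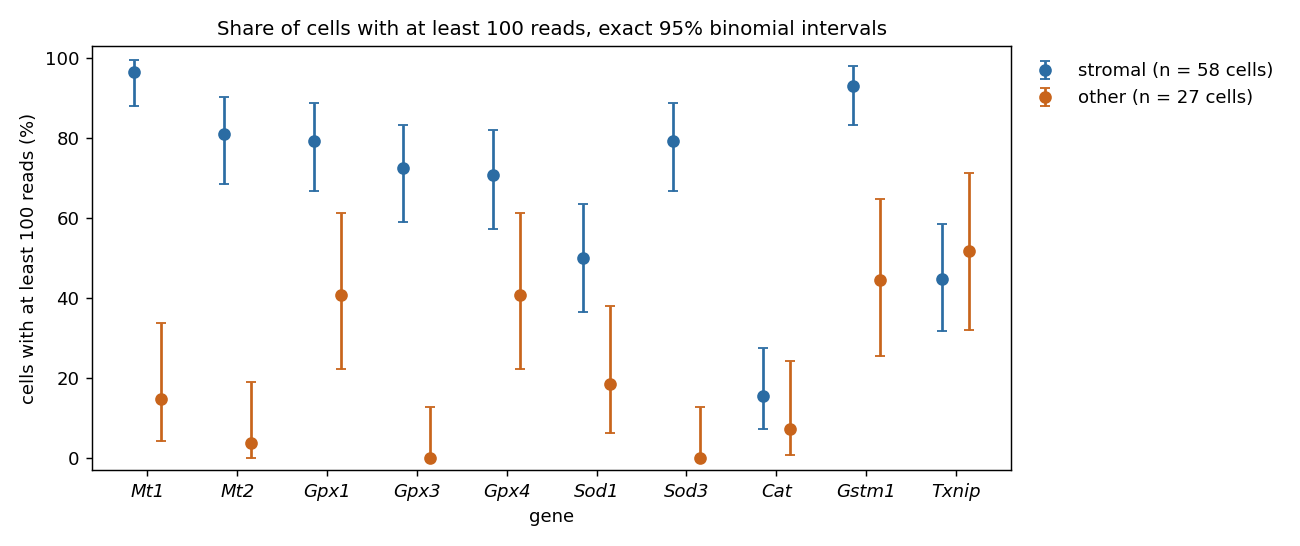
Percentage of stromal and other cells with at least 100 recovered reads of each gene, with exact 95% binomial intervals that cover counting error only. The intervals of the classes did not overlap for *Mt1*, *Mt2*, *Gpx1*, *Gpx3*, *Sod3* and *Gstm1*, and they overlapped for *Gpx4*, *Sod1*, *Cat* and *Txnip*. Over the 11478 genes tested, the intervals lay apart with the higher share in stromal cells for 9.14% and in other cells for 0.767%.

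*Mt1* and *Mt2* lie next to each other on chromosome 8, with 5514 bases from the end of *Mt2* to the start of *Mt1* in GRCm38. Their promoters are shown because both transcripts followed each other across the stromal cells. The sequences run from 250 bases before to 50 bases after the start (RefSeq, GRCm38.p6, plus strand), at chr8:94178839-94179138 for *Mt1* and chr8:94172368-94172667 for *Mt2*. Capitals mark matches to the core letters of the metal response element, TGCACNC or TGCGCNC, on either strand.
Mt1: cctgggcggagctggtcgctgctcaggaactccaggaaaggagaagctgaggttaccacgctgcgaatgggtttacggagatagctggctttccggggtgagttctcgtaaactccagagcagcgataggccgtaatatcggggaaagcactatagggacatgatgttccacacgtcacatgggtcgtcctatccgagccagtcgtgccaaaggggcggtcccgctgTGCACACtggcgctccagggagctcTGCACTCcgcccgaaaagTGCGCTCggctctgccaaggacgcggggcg
Mt2: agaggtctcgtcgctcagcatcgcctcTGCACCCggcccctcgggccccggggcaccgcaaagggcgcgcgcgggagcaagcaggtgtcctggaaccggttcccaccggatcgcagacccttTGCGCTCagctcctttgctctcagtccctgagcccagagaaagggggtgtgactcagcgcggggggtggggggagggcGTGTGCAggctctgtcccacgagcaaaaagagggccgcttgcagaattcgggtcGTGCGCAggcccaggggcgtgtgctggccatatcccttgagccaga
The *Mt1* window held 3 matches, all on the strand shown, and the *Mt2* window held 4, of which 2 were on each strand. Of 32851 promoter windows of the same length, 25.7% held at least 1 match, 1.97% held 3 or more and 0.517% held 4 or more. Among the other genes described here that had an entry, *Gstm1* and *Txnip* had 1 match, and *Gpx1*, *Gpx3*, *Gpx4*, *Sod1* and *Cat* had none in these windows. The core of the antioxidant response element, searched as TGACNNNGC on both strands, occurred once each in the *Mt2* and *Sod1* windows and in 12.4% of all windows. A match is a string of letters and was not tested as a binding site.

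*Mt1* was above 0 in all 85 cells, but its reads separated into a high and a low range. In stromal cells it ranged from 13 to 14164 reads with a median of 2670, and 56 of 58 cells had at least 100 reads (96.6%, 95% interval 88.1% to 99.6%). In other cells it ranged from 5 to 4007 reads with a median of 21, and 4 of 27 cells had at least 100 reads (14.8%, 95% interval 4.19% to 33.7%). The classes overlapped only through few cells: 4 other cells with 879 to 4007 reads, and 2 stromal cells with under 100. The first of those 2 was the cell with 69 *Dcn* reads, at 13 *Mt1* reads, and the second had 14 *Mt1* reads together with 145821 reads of *Dcn* and 7 of the 10 genes at 100 reads. Mean log2(deposited value + 1) of *Mt1* was 11.05 ± 1.81 (SD, n = 58 cells) in stromal and 5.28 ± 2.69 (SD, n = 27 cells) in other cells, a difference of 5.78. Mean CPM was 8.64 times as high in stromal cells, or 13.6 times without the other cell that held 41.1% of the *Mt1* reads of that class.

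In the 23 other cells with under 100 reads, *Mt1* ranged from 5 to 79 reads with a median of 19, whereas *Mt2* was at 0 in most of them. By the same limit, *Dcn* had a median of 14 reads (4 to 40) and *Gsn* 17 (8 to 47). *Col3a1* had a median of 6, and the rest of the stromal markers had medians of 0. As a percentage of the mean CPM in stromal cells, the median CPM was 0.446% for *Mt1*, 0.0147% for *Dcn* and 0.0360% for *Gsn*. What these low reads come from was not tested.

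*Mt2* was more sharply divided, and no cell lay between 3 and 100 reads. In stromal cells it ranged from 0 to 10906 reads with a median of 773, and 47 of 58 cells had at least 100 reads (81%, 95% interval 68.6% to 90.1%). In other cells it was above 0 in 3 of 27, with 3, 3 and 722 reads. Apart from that 1 other cell and 11 stromal cells with at most 1 read the classes did not overlap. Mean log2(deposited value + 1) was 8.10 ± 4.14 (SD) in stromal and 0.46 ± 1.76 (SD) in other cells, a difference of 7.63. Mean CPM was 538 in stromal and 14 in other cells, but 99.2% of the reads in other cells came from the 1 cell with 722, and without it the mean was 0.0924.

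The 4 other cells with *Mt1* at 100 reads or more carried 3 to 9 endothelial markers at that level, no stromal marker, and 7 to 15 reads of *Dcn*. Only 1 of them also had *Mt2*, with 722 reads.

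Across the 58 stromal cells the metallothioneins followed each other more closely than any other pair of the 10 genes. Spearman's rho between *Mt1* and *Mt2* was 0.67 on deposited values, 0.78 on CPM of recovered reads, and 0.55 over the 48 cells with both above 0. In 47 cells both had at least 100 reads, in 8 cells *Mt1* had at least 100 reads and *Mt2* had none, and no cell had *Mt2* at that level with *Mt1* under it. Where *Mt2* was at 0, *Mt1* had a median of 664 reads (13 to 1799), and where *Mt2* reached 100 reads, *Mt1* had a median of 3514 (224 to 14164). *Mt1* reads exceeded *Mt2* reads in 45 of the 47 cells with both, by a median ratio of 2.67 and an interquartile range of 1.72 to 5.34. The cells share the library method and their range of depth, and no p value is given for a correlation over cells.

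**Figure D3:**
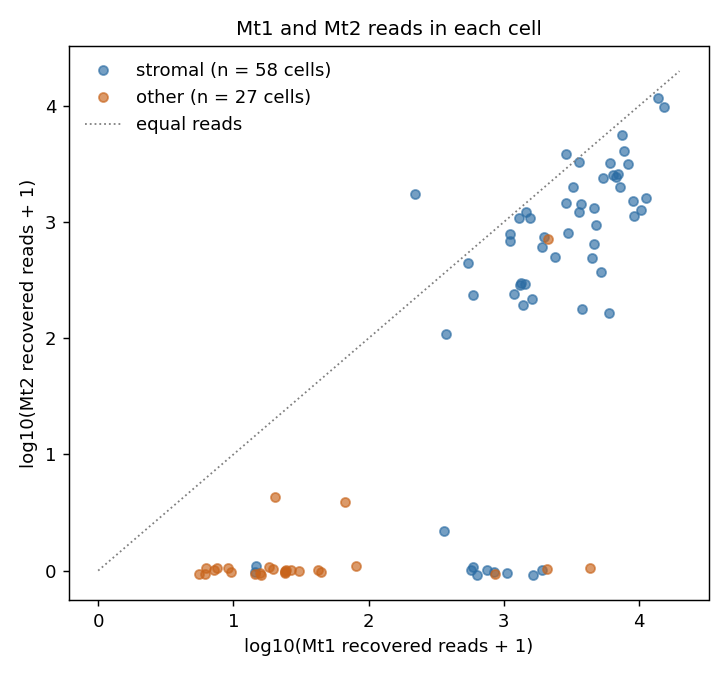
*Mt1* against *Mt2*, as log10(recovered reads + 1), in each stromal (n = 58) and other (n = 27) cell, with the line of equal reads; points are shifted slightly so that they do not hide each other. In 45 of the 47 stromal cells with both genes at 100 reads or more, *Mt1* exceeded *Mt2*, and cells with *Mt2* at 0 had at most 1799 *Mt1* reads if stromal.

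The genes most alike to the metallothioneins over stromal cells were *Gm45774*, *Socs3* and *Zfp36l1* for *Mt1* (rho 0.59, 0.58 and 0.56) and *Gm45774*, *Socs3* and *Errfi1* for *Mt2* (rho 0.83, 0.55 and 0.53), among 2698 genes above 0 in at least 20 stromal cells. The median rho over these candidates was 0.01 for *Mt1* and 0.00 for *Mt2*, and the 99th percentile was 0.37 and 0.39. The genes named below as most alike were picked in the same way, as the highest of many candidates. Whether their rho exceeds the highest that unrelated genes would reach was not tested. *Socs3* encodes a feedback inhibitor of cytokine signaling, *Zfp36l1* an mRNA-decay factor and *Errfi1* an inhibitor of EGF receptor signaling. *Gm45774* is annotated as an antisense gene at chr8:94170748-94173412 on the minus strand of GRCm38, across the start of *Mt2*, and 330 of its 2635 distinct 31-base words are the reverse complement of *Mt2* words. It had 13.2 reads per 100 of *Mt2* in stromal cells, and as the counting is not stated to use strand, reads from the stretch where they overlap cannot be assigned to one of them.

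Of the glutathione peroxidases, *Gpx3*, the secreted plasma form, separated the classes most. In stromal cells it ranged from 0 to 50606 reads with a median of 4263, and 42 of 58 cells had at least 100 reads (72.4%, 95% interval 59.1% to 83.3%). In other cells the median was 0 and the highest value was 10 reads, so 0 of 27 cells reached 100 reads (95% interval 0% to 12.8%). Stromal cells thus held either at least 541 reads or at most 15, and 43 of them exceeded the highest other cell. Mean log2(deposited value + 1) was 9.21 ± 5.26 (SD) in stromal and 0.63 ± 1.36 (SD) in other cells, a difference of 8.58 that 99.7% of the genes tested did not exceed. The 3 most alike genes over stromal cells were *Serpinf1* (rho 0.72), *Cd63* (rho 0.53) and *Map1lc3b* (rho 0.52). *Serpinf1* encodes the secreted factor PEDF, *Cd63* a tetraspanin of late endosomes, and *Map1lc3b* a protein of autophagosome membranes.

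*Gpx1*, the main cytosolic glutathione peroxidase, was found in both classes. It ranged from 0 to 12545 reads in stromal cells with a median of 1795, and from 0 to 8612 reads in other cells with a median of 5. At least 100 reads were present in 46 of 58 stromal cells (79.3%, 95% interval 66.6% to 88.8%) and 11 of 27 other cells (40.7%, 95% interval 22.4% to 61.2%). The classes overlapped over nearly their whole range. In cells with at least 100 reads the median CPM was 2.79 times as high in other cells, at 739 in stromal and 2066 in other cells, and mean CPM over all cells was 732 and 783. Mean log2(deposited value + 1) was 8.99 ± 4.03 (SD) and 5.54 ± 5.81 (SD), a difference of 3.45. That difference was 2.06 without the 1 stromal and 7 other cells whose mitochondrial share exceeded 20%, and it turned to -0.71 when only the 9 stromal cells with no more genes above 0 than the richest other cell were used. Its most alike genes were *Ndufb4* (rho 0.52), of respiratory complex I, *Timm10b* (rho 0.51), of mitochondrial protein import, and the annotated pseudogene *Gm10157* (rho 0.50).

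*Gpx4*, which reduces lipid hydroperoxides within membranes and is the enzyme that guards cells from ferroptosis, had the same form at lower levels. Stromal cells ranged from 0 to 3210 reads (median 506) and other cells from 0 to 4472 reads (median 2). At least 100 reads were found in 41 stromal cells (70.7%, 95% interval 57.3% to 81.9%) and 11 other cells (40.7%, 95% interval 22.4% to 61.2%). Among those cells median CPM was 271 in stromal and 586 in other cells, and the difference in mean log2(deposited value + 1) was 2.39, which fell to 0.57 with only those 9 stromal cells. Its pattern was closest to *RP23-269H21.1* (rho 0.92), a symbol that the reference annotation used here does not list, followed by *Mgst1* (rho 0.46) and *Igfbp7* (rho 0.41).

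Of the superoxide dismutases, *Sod3* separated the classes more than *Sod1*. *Sod3*, the extracellular form, ranged from 0 to 25431 reads in stromal cells with a median of 1765, and 46 of 58 cells had at least 100 reads (79.3%, 95% interval 66.6% to 88.8%). No other cell had more than 5 reads, and 0 of 27 reached 100 (95% interval 0% to 12.8%). Apart from 11 stromal cells with at most 5 reads the classes did not overlap, and the mean log2(deposited value + 1) was 8.85 ± 4.42 (SD) and 0.59 ± 1.16 (SD), a difference of 8.25. *Sod3* and *Gpx3*, the secreted enzymes among the 10 genes, had the second highest rho of the pairs over stromal cells, 0.39, and 0.34 with the number of genes above 0 held constant, a setting chosen after seeing the data. In 38 stromal cells both had at least 100 reads and in 8 neither did. The genes most alike to *Sod3* were *Sgk1*, a stress-induced kinase (rho 0.49), *Gadd45g*, a stress sensor (rho 0.49), and *Serpinf1* (rho 0.48).

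*Sod1*, the cytosolic copper-zinc enzyme, was either absent or well above 100 reads. It was present in 29 of 58 stromal cells (50%, 95% interval 36.6% to 63.4%), from 147 to 4830 reads with a median of 1158 among them, and in 5 of 27 other cells (18.5%, 95% interval 6.30% to 38.1%), from 1462 to 5099 reads with a median of 2530. Mean CPM over all cells was 229 in stromal and 210 in other cells. The difference in mean log2(deposited value + 1) was 2.77, with SDs over cells of 5.03 and 4.54. Its most alike genes were *Gm8566* (rho 0.92), *Col1a1* (rho 0.47) and *Rhob* (rho 0.47). *Gm8566* is annotated as a processed pseudogene on chromosome 6, shares 213 of its 435 distinct 31-base words with *Sod1*, and had 2.0 reads per 100 of *Sod1*, so these counts are not independent.

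*Cat*, which encodes peroxisomal catalase, was the rarest of the 10 transcripts. It was above 0 in 9 of 58 stromal cells (15.5%, 95% interval 7.35% to 27.4%), from 387 to 5798 reads, and in 2 of 27 other cells (7.41%, 95% interval 0.910% to 24.3%), with 9616 and 9824 reads. The remaining 74 cells held none. The difference in mean log2(deposited value + 1) was 0.73, close to the median of all genes, and mean CPM was 144 in stromal and 247 in other cells, where it rested on 2 cells and was 127 without the higher of them.

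*Gstm1*, a mu-class glutathione transferase, had the highest mean CPM per kilobase of exon of the 10 genes in both classes, although its median in other cells was 0. Stromal cells ranged from 0 to 32345 reads with a median of 6554, and 54 of 58 had at least 100 reads (93.1%, 95% interval 83.3% to 98.1%). Other cells ranged from 0 to 24038 reads with a median of 0, and 12 of 27 had at least 100 reads (44.4%, 95% interval 25.5% to 64.7%). The upper ranges overlapped, with a median CPM of 2358 in the 54 stromal and 2802 in the 12 other cells, and the difference in mean log2(deposited value + 1) was 5.62. The closest genes were *Gstm2-ps1* (rho 0.96), *Gstm3* (rho 0.90) and *RP23-361K13.1* (rho 0.90). *Gstm1* shares 339 of the 627 distinct 31-base words of *Gstm2-ps1*, 195 of the 1281 of *Gstm3* and 39 of the 1680 of *Gstm2*, so reads may be split between these paralogs and the value of *Gstm1* is uncertain to that extent. Within stromal cells *Gstm1* ran against the metallothioneins, with a rho of -0.39 with *Mt1* and -0.36 with *Mt2*, the lowest of the 45 pairs.

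**Figure D4:**
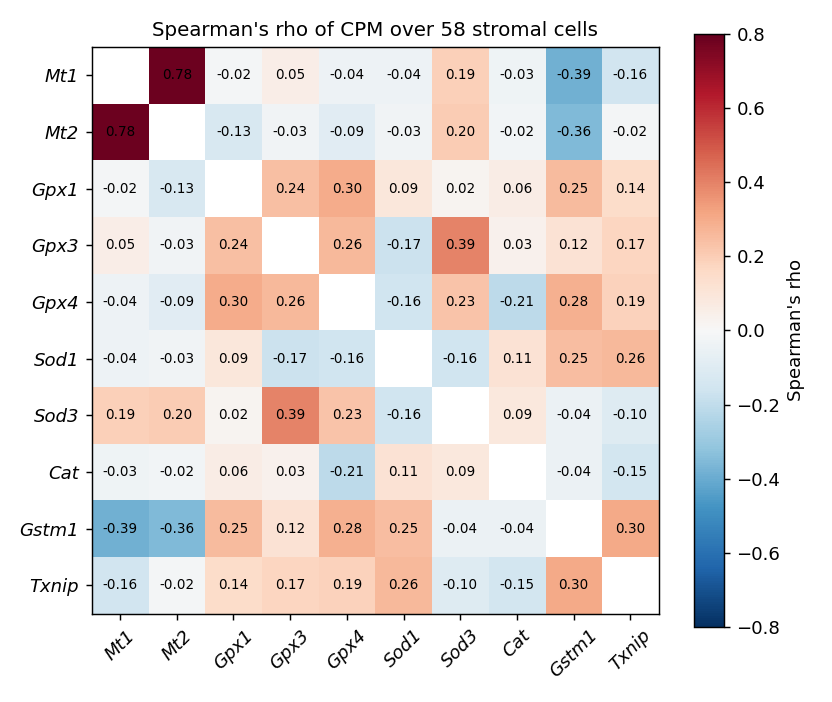
Spearman's rho of CPM of recovered reads for each pair of the 10 genes over 58 stromal cells; the color scale gives rho. The pair of *Mt1* and *Mt2* stands at 0.78, the next pair at 0.39, and 30 of the 45 pairs lie between -0.2 and 0.2.

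The other pairs varied largely apart from each other. Over the 45 pairs the median rho was 0.03, only *Mt1* with *Mt2* exceeded 0.4, and 21 pairs were below 0. *Gpx1* with *Gpx4* reached 0.30. Several genes varied with the mitochondrial share of the cell, with rho of -0.48 for *Gpx1*, -0.41 for *Gpx4*, -0.40 for *Gstm1*, 0.08 for *Mt1* and 0.26 for *Mt2* over stromal cells. CPM of a nuclear gene falls by construction as that share grows, and the part of the share in these values was not tested. Summed CPM of 15 dissociation response genes, which are induced by tissue digestion, had a rho of 0.26 with *Mt1*, 0.10 with *Mt2* and 0.36 with *Sod3* over stromal cells. That sum had a median of 18787 CPM in stromal cells (72.8 to 52980) and 20522 CPM in other cells (4.65 to 44771). Its genes were not alike between the classes, since 10 of the 15 were higher in stromal cells by at least 1, among them *Fosb* (7.04), and *Hspa1a* (-4.94) and *Hspa1b* (-2.78) were higher in other cells. The part of this response in the differences of the 10 genes was not tested.

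*Txnip* was the gene of the 10 that differed least between the classes in mean log2. It ranged from 0 to 9467 reads in stromal cells with a median of 51, and from 0 to 25955 reads in other cells with a median of 158. At least 100 reads were present in 26 of 58 stromal cells (44.8%, 95% interval 31.7% to 58.5%) and 14 of 27 other cells (51.9%, 95% interval 31.9% to 71.3%). The classes overlapped throughout, and mean log2(deposited value + 1) was 5.61 ± 4.38 (SD) in stromal and 5.73 ± 5.25 (SD) in other cells, a difference of -0.12. Of the genes tested, 11.9% had a difference as low or lower. Mean CPM was 277 in stromal and 606 in other cells, but the latter rested on 1 cell with 25955 reads, without which it was 261. *Gstp1*, *Mgst1* and *Afdn* had the highest rho with *Txnip* over stromal cells (0.41, 0.39 and 0.39). The 99th percentile over the 2698 candidates was 0.31.

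The *Txnip* promoter is shown because its glucose response is known to run through a carbohydrate response element, which the Mondo proteins and their partner *Mlx* bind as a pair of E-box-like motifs. The window is chr3:96557707-96558006 of GRCm38.p6 (RefSeq, plus strand), and capitals mark 2 CACGNG motifs that are 5 bases apart.
Txnip: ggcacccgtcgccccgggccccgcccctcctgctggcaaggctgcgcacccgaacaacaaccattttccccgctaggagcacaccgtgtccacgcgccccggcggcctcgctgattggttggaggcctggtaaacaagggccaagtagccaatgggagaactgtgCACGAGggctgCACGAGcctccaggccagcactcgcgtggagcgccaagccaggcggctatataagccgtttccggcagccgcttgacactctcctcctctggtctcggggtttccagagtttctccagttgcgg
This pair, searched on both strands, was found in 16 of the 32851 windows (0.0487%). Of the 117 genes with an entry among the 10 genes and the pathway lists described next, *Txnip* alone had it. Other forms of such a pair were not searched, so the remaining genes may hold one. *Mlx* was above 0 in 7 stromal cells and 1 other cell, *Mlxip*, which encodes MondoA, in 10 and 2, and *Arrdc4*, an arrestin-like relative of *Txnip*, in 10 and 3. These counts are too few to set against *Txnip* across cells.

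Per kilobase of exon (annotated exon union of GRCm38, whereas the reads were aligned to mm9), mean CPM in stromal cells was in the order *Gstm1* (1843), *Gpx3* (1440), *Mt1* (1116), *Mt2* (915), *Gpx1* (508), *Sod3* (216), *Gpx4* (158), *Txnip* (88.6), *Sod1* (57.6) and *Cat* (55.1). The SD over cells was between 503 and 1744 for the first 5 genes, and each neighbor in the order differed from the next by less than its own SD. In other cells the order was *Gstm1* (1082), *Gpx1* (543), *Txnip* (194), *Gpx4* (166), *Mt1* (129), *Cat* (94.6), *Sod1* (52.8), *Mt2* (23.7), *Gpx3* (0.258) and *Sod3* (0.106), and neighbors again differed by less than the SD. The place of *Txnip* in it rested on 1 cell with 25955 reads, without which its mean was 83.6. By medians the order in other cells was another, with *Txnip* (18.3), *Mt1* (6.16), *Gpx1* (1.22) and *Gpx4* (0.53) above the remaining 6 genes at 0. *Gpx3* thus stood second among the stromal cells and next to last among the other cells.

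A stromal cell held a median of 7 of the 10 genes at 100 reads or more (0 to 10), and an other cell held a median of 2 (0 to 5). Since other cells also held fewer genes in all, the 9 stromal cells with no more genes above 0 than the richest other cell were looked at alone, a choice made after seeing the data. Their median was 2053 genes. Of these 9, *Mt1* reached 100 reads in 8, *Mt2* in 7 and *Gstm1* in 7, *Gpx1*, *Gpx4*, *Sod1* and *Sod3* in 3 each, *Gpx3* and *Cat* in 2 each, and *Txnip* in 1. The difference from other cells in mean log2(deposited value + 1) was 6.0 for *Mt1*, 8.09 for *Mt2*, 4.05 for *Gstm1*, 3.45 for *Gpx3* and 3.07 for *Sod3*, but -0.71 for *Gpx1* and 0.57 for *Gpx4*. In these few cells, which include the one with 69 *Dcn* reads, the difference of *Gpx1* thus turned in direction and that of *Gpx4* fell under 1. Among genes with at least 5 cells at 100 reads in each class, 87.7% of 976 had a higher median CPM in other cells among such cells, as did 4 of 5 of the genes described here.

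The rest of the pathways around these genes leaned the same way as most genes. Of the 128 genes on 8 lists, 109 had a row and 97 were above 0 in at least 3 cells, of which 51 were higher in stromal cells by at least 1 and 0 were higher in other cells, with a median difference of 1.20. The share over all genes was 35.6%, with a median difference of 0.64. The lists were chosen with earlier results of these data known.

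Thioredoxin and peroxiredoxin genes had the highest median, 2.24, with 13 of 16 higher in stromal cells. They included *Txndc5*, an endoplasmic reticulum disulfide isomerase (4.91), *Txn1*, cytosolic thioredoxin (3.80), and *Prdx1*, a cytosolic peroxiredoxin (3.50). The Nrf2 pathway list had 8 of 12 higher and a median of 1.91, with *Fth1*, ferritin heavy chain (5.49), *Nfe2l2*, which encodes Nrf2 itself (4.29), and *Blvrb*, a biliverdin reductase (2.49). *Nqo1*, a classic Nrf2 target, was above 0 in 0 stromal cells and 1 other cell, and *Hmox1* in 13 and 5.

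Other glutathione peroxidases and transferases were split, with 9 of 17 higher in stromal cells and a median of 1.20. That median was the value of *Gstm3*, which is among the 9 and may share reads with *Gstm1*. It reached 100 reads in 1 stromal cell and 0 other cells. *Gpx8*, a peroxidase of the endoplasmic reticulum (7.70), and *Mgst1*, a microsomal transferase (7.28), differed nearly as much as *Gpx3*, and *Gstm2* (5.13) followed. *Gpx8* reached 100 reads in 42 stromal cells and in 0 other cells, and *Mgst1* in 46 and 4. Glutathione synthesis and recycling had 6 of 11 higher (median 1.22), led by the glutaredoxin *Glrx3* (3.66) and by *G6pdx* (2.25) and *Pgd* (1.68), which supply NADPH.

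Zinc handling genes differed less than the metallothioneins, with 3 of 12 higher and a median of 0.81. Over all genes tested, 35.6% were higher and the median was 0.64. The zinc importer *Slc39a1* had 2.71, the zinc transporters *Slc30a5* and *Slc39a6* had 1.24 and 1.23, and *Mtf1*, the metal-sensing factor, was above 0 in 7 stromal cells and 0 other cells (0.93). In the superoxide and copper list 2 of 7 were higher, the copper chaperone *Atox1* (2.84) and ceruloplasmin, *Cp* (2.66). *Slc31a1*, a copper importer, had 0.92, and *Sod2*, the mitochondrial superoxide dismutase, was above 0 in 12 stromal and 5 other cells.

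In selenoprotein supply 4 of 10 were higher with a median of 0.65, near the 35.6% and 0.64 over all genes tested. The largest differences were those of *Selenom* (5.36), *Selenok* (3.18) and *Selenow* (2.52), which encode small selenoproteins. Among *Txnip* relatives and glucose response genes 6 of 12 were higher with a median of 0.86. They were led by *Foxo1*, a forkhead factor (4.08), and the glucocorticoid-responsive genes *Klf9* (3.86) and *Tsc22d3* (2.91), while *Txnip* itself had -0.12.

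**Figure D5:**
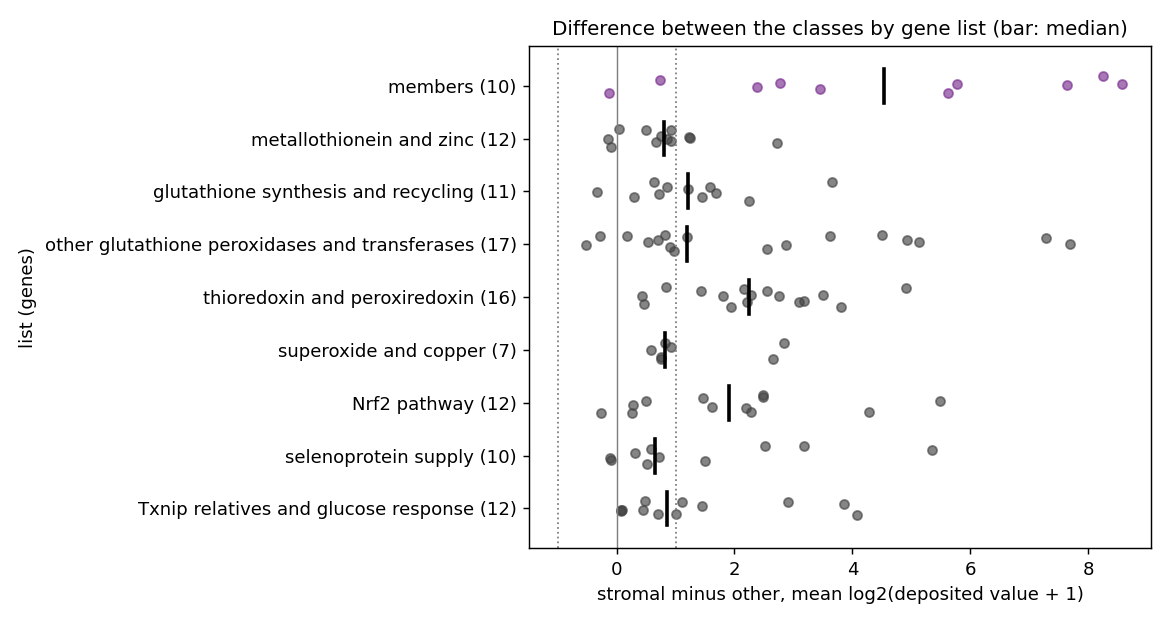
Difference between stromal and other cells in mean log2(deposited value + 1) for the 10 genes and for 8 lists of related genes; each point is a gene above 0 in at least 3 cells, bars are medians, and dotted lines mark -1 and 1. The 10 genes had a median of 4.54 and the lists had medians from 0.65 to 2.24.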

How the data were processed

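Single PV-ADSCs were profiled as full-length cDNA libraries (SMART-seq v4 on a Labcyte Echo), 1 per cell. After FastQC, the authors mapped reads to the mm9 genome by HISAT2 2.0.5, went on with SAMtools 1.4 and StringTie 1.3.3, and normalized with scater's default scaling (tool versions from the submitters' processing notes and the methods). What the authors deposited is a normalized count signal per gene and cell, for 85 cells with more than the authors' minimum of aligned reads. 0 columns were left unused. The program that counted reads is not given in the sources used here.

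Among the rows, 9942 genes above 0 in fewer than 10 cells held whole numbers, as did 723 others, including *Cat*. The other 5404 genes fell into 13 groups, each with its own factor in each cell (0.00525 to 94.5), which gave whole reads for all but 4 of 144272 values. With simulated reads times known factors, 99.99% of the values above 0 of these 5404 genes were recovered. The simulated factors spanned a narrower range than those of the data, so factors as extreme as 94.5 were not checked. A factor rested on under 10 values in 21 of 1105 cases, and in 1 case none was found and values were rounded. Deposited values compare cells through these factors, and zeros remain zeros.

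Cells were classed by *Dcn*. A gene counted as different where mean log2(value + 1) differed by at least 1, among genes above 0 in at least 3 cells. As all cells were 1 sample, no test was made. Shares have exact Clopper-Pearson intervals at 95%, for counting error only. Reads were counted without molecular identifiers, and intervals do not cover missed transcripts. No doublet caller was run, as cells had been sorted singly. Alternatives were a pseudocount of 10, CPM, other *Dcn* thresholds, medians, other sets of cells, higher read thresholds and thinning to 1359289 reads per cell.

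The members and lists were chosen with earlier results of these data known. Named genes were the 10 members, up to 3 genes of each pathway list with the largest difference, the 3 genes of highest rho for each member above 0 in at least 20 stromal cells, and up to 3 marker genes a list. *Nqo1*, *Hmox1*, *Mtf1*, *Sod2*, *Mlx*, *Mlxip* and *Arrdc4* were named after their values were seen. Genes of the lists without a row, such as *Mt3*, *Mt4* and *Gpx2*, were not analysed here. Promoters are from RefSeq (GRCm38.p6) and matched 9 of the 10 genes by symbol, all but *Sod3*. Gene positions and exon lengths are from GENCODE M21 (GRCm38). No coordinates in mm9 are given. Python 3.11.15, numpy 2.4.6, pandas 2.3.3, scipy 1.17.1 and matplotlib 3.10.9 were used.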

Additional observations from a re-analysis of the deposited data

How the results depend on the processing

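Under 11 alternatives, 106 of 110 differences of single genes stayed on the same side of 1 and -1. For the 8 genes with a difference of at least 1, 11 of the differences moved by over 1.5 times. Moves of *Cat* and *Txnip*, with differences near 0, are not in that count. Their differences ranged from 0 to 1.61 for *Cat* and from -1.66 to 0.13 for *Txnip*. With medians over cells *Gpx1* moved from 3.45 to 8.13, *Gpx4* from 2.39 to 6.79 and *Gstm1* from 5.62 to 12.6. With the 9 stromal cells of few genes *Gpx3* moved to 3.45, *Sod3* to 3.07, *Sod1* to 1.49, *Gpx4* to 0.57, *Cat* to 1.61 and *Txnip* to -1.66, and *Gpx1* turned to -0.71. A pseudocount of 10 gave 1.56 for *Gpx4* and 1.74 for *Sod1*, and leaving out cells with a mitochondrial share above 20% gave 2.06 for *Gpx1*. Those limits on genes and mitochondrial share, the rule of 1000 recovered *Dcn* reads and the rho with genes above 0 held constant were chosen after seeing the data. In the cells of few genes 7 genes, with *Cat* among them, were higher in stromal and 1, *Txnip*, was higher in other cells, with 2449 of all genes higher in stromal cells compared with 4088. A pseudocount of 10 gave 2353 genes higher in stromal and 209 higher in other cells (326 with a pseudocount of 1). Medians over cells gave 22 pathway genes higher in stromal cells in place of 51. The rho of *Mt1* with *Mt2* was 0.78 on CPM and 0.55 where both were above 0. A minimum of 10 reads lowered the share of other cells with *Mt1* to 74.1% and of stromal cells with *Txnip* to 53.4%; at 100 reads the order of the classes turned for *Txnip*. The causes of these shifts were not tested. No paired analysis was possible because all cells belong to 1 group and no result came from a test. With 1 sample the spread between animals is unknown, and a transcript at 0 in a cell may have been missed.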
